A study of Rattus norvegicus with 8 samples.

Results

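The ErbB receptors and the neuregulins that bind them were examined in oligodendrocyte precursor cells (OPCs) cultured from rat, which divide and give rise to the cells that form myelin. The 8 genes (Egfr, Erbb2, Erbb3, Erbb4, Nrg1, Nrg2, Nrg3 and Nrg4) were taken by their symbols from a deposited table of 32883 genes, and each symbol matched 1 entry. The libraries came from 4 male and 4 female cultures, numbered 1 to 4 within each sex. All 8 cultures were treated alike per the labels. Cerebral cortex of Sprague Dawley rats aged 1 to 2 days was grown as mixed glia in medium with 20% serum, the cells that did not adhere were collected, and these stayed 4 to 5 days in medium with PDGF and FGF, growth factors given at 10 ng/ml each, and the supplement B27 at 2%. No neuregulin or EGF is named among the additions. Whether libraries of 1 sex stem from separate animals or litters is not stated, and the p-values cover only the spread among these 8 libraries, which may be technical.

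ErbB receptors are a family of cell-surface tyrosine kinases that work in pairs. Egfr (also called ErbB1) binds EGF, TGF-alpha and related ligands. ErbB3 and ErbB4 bind neuregulins, and ErbB2 binds no ligand of its own but is the preferred partner of the others. ErbB3 has little kinase activity and passes its signal on through its partner, recruiting PI3-kinase. In glia the family is best known from Schwann cells, which need Nrg1 with ErbB2 and ErbB3. In the oligodendrocyte lineage neuregulins have been linked to survival, proliferation and myelination.

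The labelled cell type was checked against its markers. Of 16 OPC markers, 15 were matched and all 15 were expressed at a mean of at least 1 FPKM (fragments sequenced, scaled by transcript length and library size). The deposited unit is FPKM, for which no depth is given. Low FPKM values of 1 gene fell on steps, and from these the depth relative to male 1 lay between 0.553 and 1 in the male and between 0.304 and 0.980 in the female libraries. Pairwise Spearman correlations between libraries lay between 0.953 and 0.978 over 11263 genes. Markers of other cells were present, so reaching a mean of 1 FPKM does not by itself set OPCs apart. All 12 neuron markers reached it, with 2 called higher in male cultures. They summed to 890 to 924 FPKM in male and 823 to 942 FPKM in female libraries. Most of that sum was Gap43, named after its value was seen, which averaged 542 FPKM in male and 493 FPKM in female cultures. Rbfox3, a defining neuron marker, averaged only 2.89 FPKM in male and 3.29 FPKM in female cultures. Of 10 astrocyte markers 7 reached the mean of 1 FPKM and 0 were called, with sums of 221 to 242 FPKM in male and 221 to 248 FPKM in female libraries. The largest parts, named after their values were seen, were Slc1a3 (86.8 FPKM in male and 74.0 FPKM in female cultures) and Aldoc (88.7 and 102 FPKM). Gfap averaged only 2.39 FPKM in male and 1.96 FPKM in female cultures. Such sums therefore do not measure how many neurons or astrocytes were present. Summed over 16 matched microglia and macrophage markers, the level lay between 67.6 and 86.6 FPKM in male libraries and 201 to 250 FPKM in female libraries, and 11 of the 14 tested markers were called lower in male cultures. Summed over 13 interneuron markers it lay between 50.5 and 67.8 FPKM in male and between 12.3 and 23.1 FPKM in female libraries, with 4 of 7 tested markers called higher in male cultures, while Lhx6, Npy and Pvalb were listed at 0 in all libraries. Of 11 matched fibroblast, mural and endothelial markers none reached a mean of 1 FPKM.

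Erbb3 was the most abundant member, followed by Erbb4 and Nrg3, and the others averaged under 1 FPKM. Those others, and by its steps Nrg3 too, were near the lower limit of what these libraries measure. Over the 8 libraries Erbb3 averaged 16.2 FPKM, Erbb4 8.38 FPKM and Nrg3 3.89 FPKM. Egfr averaged 0.569 FPKM, Nrg2 0.538 FPKM, Erbb2 0.487 FPKM and Nrg1 0.444 FPKM, and Nrg4 was listed at 0 in every library. Within a library Erbb3 was above Erbb4 in 8 of 8 (mean difference 0.81 ± 0.56 on the log2(FPKM + 1) scale, SD, n = 8; exact two-sided sign-flip permutation test, adjusted p = 0.0273 over 7 neighbouring pairs). The margin was small in male 2, male 3 and male 4, where Erbb3 was 1.25, 1.01 and 1.21 times Erbb4. In male 1 and the female libraries it was 1.79 to 2.96 times Erbb4. Erbb4 was above Nrg3 in 7 of 8 libraries, male 1 being the exception (exact permutation adjusted p = 0.0410), and Nrg3 was above Egfr in 8 of 8 (exact permutation adjusted p = 0.0273). Egfr, Nrg2, Erbb2 and Nrg1 could not be put in order, with exact permutation adjusted p from 0.864 to 0.906 for the 3 neighbouring pairs among them. FPKM is per transcript length, so these levels can be set beside each other, but isoforms are not separated. The pairs were neighbours in the order of these same means, with both sexes pooled, so the p-values are no independent test of that order.

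**Figure D1:**
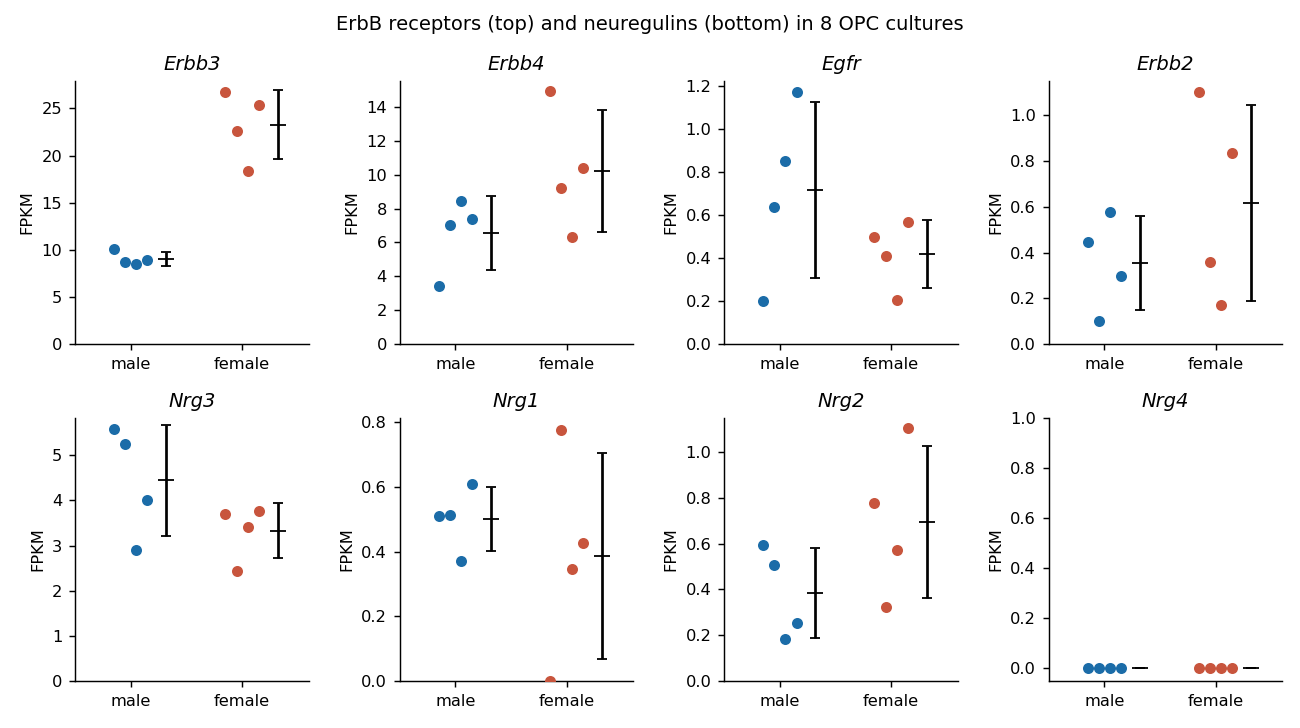
FPKM of each receptor (top row) and neuregulin (bottom row) in 4 male (blue) and 4 female (red) libraries, 1 point per library, with the mean and SD as a black mark beside each group; each panel has its own axis. Only for Erbb3 do all 4 male points lie below all 4 female points, and Nrg4 is at 0 throughout.

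Erbb3 (ENSRNOG00000004964), the neuregulin receptor with an impaired kinase, was lower in male cultures. It stood at 10.1, 8.77, 8.49 and 8.90 FPKM in male 1 to male 4, against 26.8, 22.6, 18.4 and 25.4 FPKM in female 1 to female 4. The highest male library, male 1, was well under the lowest female library, female 3, so the groups did not overlap, and the male values were tightly grouped. The mean was 9.08 ± 0.735 FPKM in male and 23.3 ± 3.68 FPKM in female cultures (SD, n = 4 each), which made it 2.57 times as high in female cultures. The log2(FPKM + 1) difference, male minus female, was -1.26 ± 0.12 (SE), with a 95% confidence interval of -1.53 to -0.99. The test, limma (mean-variance trend, robust moderation) over 11263 genes, gave a Benjamini-Hochberg adjusted p of 0.000403, which was rank 15 of all tested genes by p. For comparison, 6.04% of all tested genes were called in either direction and 2.89% as lower in male cultures, against 3.14% as higher. Among all tested genes 6.77% had male libraries that all lay below the female ones. Genes with an adjusted p under 0.05 are referred to as called, and 3 of the 8 members (Erbb3, Erbb4 and Nrg3) reached the mean of 1 FPKM needed for this test. Erbb3 was called in every fit that left out 1 library, with differences of -1.36 to -1.19 and limma adjusted p of 0.000212 to 0.00276. When tested against a 1.5-fold change instead of no change it missed the threshold (limma adjusted p = 0.0501).

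The OPC markers themselves varied in how far they differed between the same cultures. Of the 15, Gpr17 and Tnr had larger differences than Erbb3 and the other 13 smaller ones. Tnr, the gene of the matrix protein tenascin-R, named after its value was seen, stood at 5.71 ± 0.995 FPKM in male and 17.8 ± 6.82 FPKM in female cultures (log2 difference -1.42 ± 0.25, limma adjusted p = 0.0111). Pdgfra, the PDGF receptor gene that marks OPCs, stood at 229 ± 10.4 FPKM in male and 303 ± 27.8 FPKM in female cultures (log2 difference -0.40 ± 0.07, limma adjusted p = 0.0103). Olig2, a transcription factor gene of the lineage, was at 258 ± 17.2 FPKM in male and 304 ± 11.7 FPKM in female cultures (limma adjusted p = 0.0512). The 15 OPC markers summed to between 2572 and 2758 FPKM in male libraries, against 3135 to 3551 FPKM in female ones, and 8 of 15 were called lower in male cultures, none higher. Leaving out female 1, female 4 or any male library but male 1 lowered the number called to 4, and the other fits with 1 library left out called 6 to 10. In a bulk library fewer cells of a type and less RNA per cell cannot be told apart. Ratios within a library, chosen after the values were seen, remove the scaling of the library. Per 100 FPKM of Olig2, Erbb3 stood at 3.61, 3.44, 3.53 and 3.50 FPKM in male 1 to male 4, against 8.66, 7.88, 6.03 and 8.09 FPKM in female 1 to female 4. Male libraries thus differed little from one another, and none came near a female library. Per 100 FPKM of Pdgfra it averaged 3.98 ± 0.503 FPKM in male and 7.65 ± 0.671 FPKM in female libraries. Per 100 FPKM of Sox10, a transcription factor gene of oligodendrocyte and Schwann lineages, it averaged 4.73 ± 0.264 FPKM in male and 9.50 ± 1.44 FPKM in female libraries. None of these 3 ratios overlapped between the sexes, and the log2 ratio differed by -1.11 ± 0.12 for Olig2, -0.95 ± 0.11 for Pdgfra and -0.99 ± 0.12 for Sox10 (SE). Each had an exact two-sided permutation p of 0.0286, the smallest that 70 assignments allow, and an adjusted p of 0.0667 over 7 ratios. The outcome depended on the marker in the denominator. Erbb3 itself did not overlap between the sexes, so its ratio to a gene that differed less tends to be lower in male libraries too. These ratios are therefore no support separate from the Erbb3 difference, and the same ratio was not taken over genes outside the OPC list. Over all 15 OPC markers the ratio of Erbb3 to the marker was lower in every male library for 13, and overlapped between the sexes for Gpr17 and Tnr. The log2 ratio, male minus female, was 0.34 for Gpr17 and 0.21 for Tnr, and its median over the 15 markers was -0.96.

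**Figure D2:**
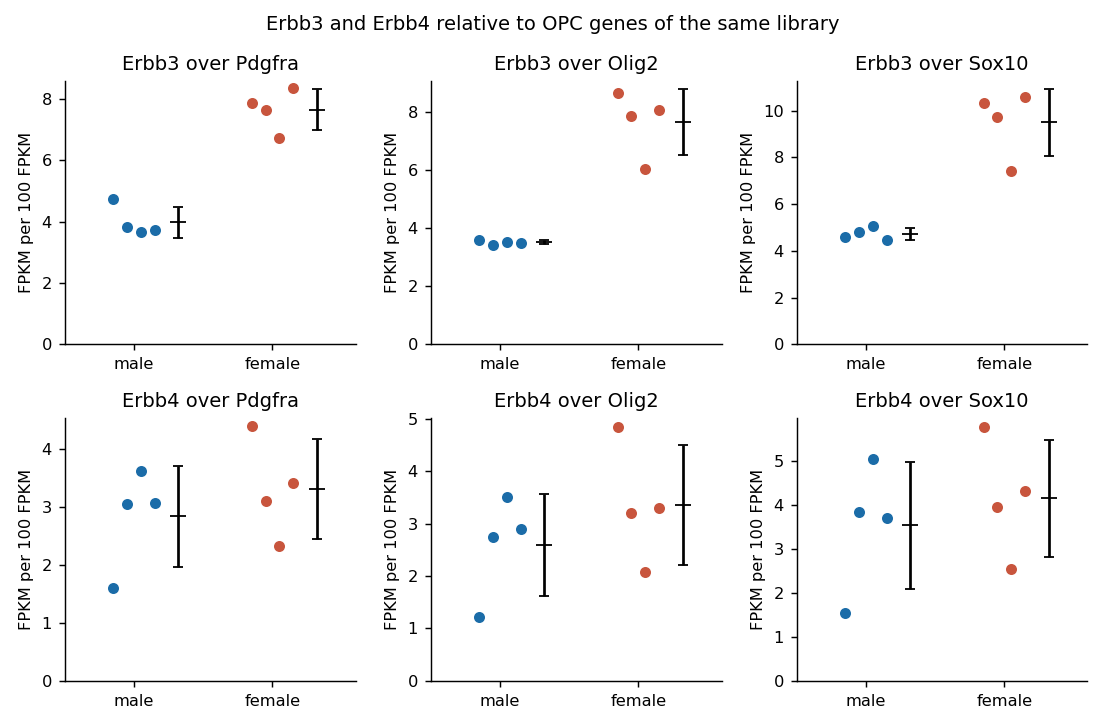
Erbb3 (top row) and Erbb4 (bottom row) as FPKM per 100 FPKM of Pdgfra, Olig2 or Sox10 in the same library, for 4 male (blue) and 4 female (red) libraries with mean and SD. All 3 Erbb3 ratios separate the sexes, with male values of 3.44 to 3.61 per 100 Olig2, and the Erbb4 ratios overlap.

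Markers of OPC stages and of other cells were set beside Erbb3, and some but not all of them differed between the sexes. Gpr17, a receptor gene of OPCs committed to differentiate and 1 of the 15 OPC markers, stood at 43.1 ± 3.41 FPKM in male and 143 ± 40.3 FPKM in female cultures (-1.66 ± 0.18, limma adjusted p = 0.00126). Myrf, the transcription factor gene that turns on myelin genes, stood at 5.16 ± 0.907 FPKM in male and 14.0 ± 3.39 FPKM in female cultures (-1.27 ± 0.18, limma adjusted p = 0.00351). The myelin basic protein gene Mbp averaged 200.4 FPKM in both sexes (limma adjusted p = 0.976). Of 15 tested genes of differentiating oligodendrocytes 3 were called lower in male cultures (Myrf, Bcas1 and Cnp) and none higher, and their median log2 difference was -0.06 where that of all tested genes was -0.004. The microglial complement gene C1qa was at 9.56 ± 2.70 FPKM in male and 39.05 ± 3.54 FPKM in female cultures. Of 7 tested markers of Schwann and olfactory ensheathing cells, 1 was called, Egr2, which was higher in male cultures. The part of microglia, or of a different balance of OPC stages, in the level of Erbb3 was not tested.

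Erbb4 (ENSRNOG00000014248), a neuregulin receptor with a working kinase that is also prominent in cortical interneurons, was not called. It stood at 3.43, 7.01, 8.42 and 7.36 FPKM in male 1 to male 4, against 14.9, 9.21, 6.33 and 10.4 FPKM in female 1 to female 4. The groups overlapped, since female 3 lay below 3 male libraries, and male 1 was the lowest of all. The mean was 6.56 ± 2.17 FPKM in male and 10.2 ± 3.58 FPKM in female cultures, with a log2 difference of -0.57 ± 0.27 and a 95% confidence interval of -1.18 to 0.04 (limma adjusted p = 0.270). With 1 library left out the difference ranged from -0.76 without female 3 to -0.33 without male 1 (limma adjusted p 0.119 to 0.496). It was -0.52 without both male 1 and female 3 (limma adjusted p = 0.123) and -0.32 once relative depth entered the fit (limma adjusted p = 0.431). The interneuron genes Gad1 (19.2 ± 1.77 FPKM in male and 3.93 ± 1.12 FPKM in female cultures) and Gad2 (8.94 ± 0.928 FPKM in male and 3.02 ± 0.593 FPKM in female cultures), which encode enzymes of GABA synthesis, were called higher in male cultures, and the part of interneurons in the level of Erbb4 was not tested. Male 1 and female 3, the libraries in which Erbb4 was lowest within each sex, were also the deepest of their sex, at relative depths of 1 and 0.980. Among all tested genes, 1392 (12.4%) were lowest of their sex in both of those libraries and 1218 (10.8%) were highest in both. Opposite patterns were rarer, with 534 (4.74%) highest in male 1 and lowest in female 3, and 562 (4.99%) the other way round. The ratios of Erbb4 to Pdgfra, Olig2 and Sox10 overlapped between the sexes, with exact permutation adjusted p of 0.543 for each.

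Egfr (ENSRNOG00000004332), the receptor for TGF-alpha and EGF, was near the detection limit. It stood at 0.201, 0.638, 0.852 and 1.18 FPKM in male 1 to male 4, against 0.497, 0.412, 0.206 and 0.567 FPKM in female 1 to female 4. Male values spread widely and took in the whole female range. After scaling by relative depth these values were whole multiples, within 0.1, of 1 step. They were 4, 7, 13 and 13 steps in male 1 to male 4, and 3, 3, 4 and 6 steps in female 1 to female 4. If a step is worth 1 fragment, as the low values point to, the level in each library rests on 13 fragments at most. The difference in log2(FPKM + 1) was 0.25 ± 0.20 (SE; exact two-sided permutation p = 0.257). Without male 1, the deepest library, it was 0.41, with an exact permutation p of 0.0286, the smallest that the remaining libraries allow. Leaving out any other library gave an exact permutation p of 0.257 to 0.514, and none of these was adjusted.

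Erbb2 (ENSRNOG00000006450), the partner receptor without a ligand of its own, was as low. It stood at 0.446, 0.101, 0.580 and 0.300 FPKM in male 1 to male 4, against 1.10, 0.361, 0.171 and 0.836 FPKM in female 1 to female 4. In 7 of 8 libraries these were whole multiples of a step, with 8, 1, 8 and 3 steps in male 1 to male 4 and 6, 3 and 8 steps in female 1, female 3 and female 4. The groups overlapped over most of their range, and the difference was -0.23 ± 0.22 (SE; exact permutation p = 0.343). With 1 library left out it ranged from -0.37 without female 3 to -0.09 without female 1.

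The summed level of the 4 receptors was lower in every male than in every female library, and Erbb3 with Erbb4 made up nearly all of their level. Summed FPKM lay between 14.2 and 18.3 in male and between 25.1 and 43.3 in female libraries. The log2 difference of the sums was -1.03 ± 0.19 (SE; exact permutation p = 0.0286, adjusted 0.0571 over the receptor and neuregulin sums). Erbb3, the largest part of the sum, did not overlap between the sexes by itself, while Erbb4, Egfr and Erbb2 each overlapped. The sum is therefore no support separate from the Erbb3 difference. As a share of the 4 receptors, Erbb3 made up 71.3, 53.1, 46.3 and 50.2% in male 1 to male 4, against 61.8, 69.4, 73.3 and 68.3% in female 1 to female 4. Male 1 lay within the female range and the other male libraries below it, so the share overlapped (55.2 ± 11.1% in male and 68.2 ± 4.79% in female libraries, exact permutation p = 0.114, adjusted 0.2 over 7 shares). Egfr made up 4.14 ± 2.16% in male and 1.19 ± 0.293% in female libraries (exact permutation p = 0.0571, adjusted 0.133). Erbb2 made up 2.15 ± 1.23% in male and 1.64 ± 0.893% in female libraries (exact permutation adjusted p = 0.6). Erbb4 made up 38.5 ± 9.77% in male and 29.0 ± 3.95% in female libraries (exact permutation adjusted p = 0.2).

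**Figure D3:**
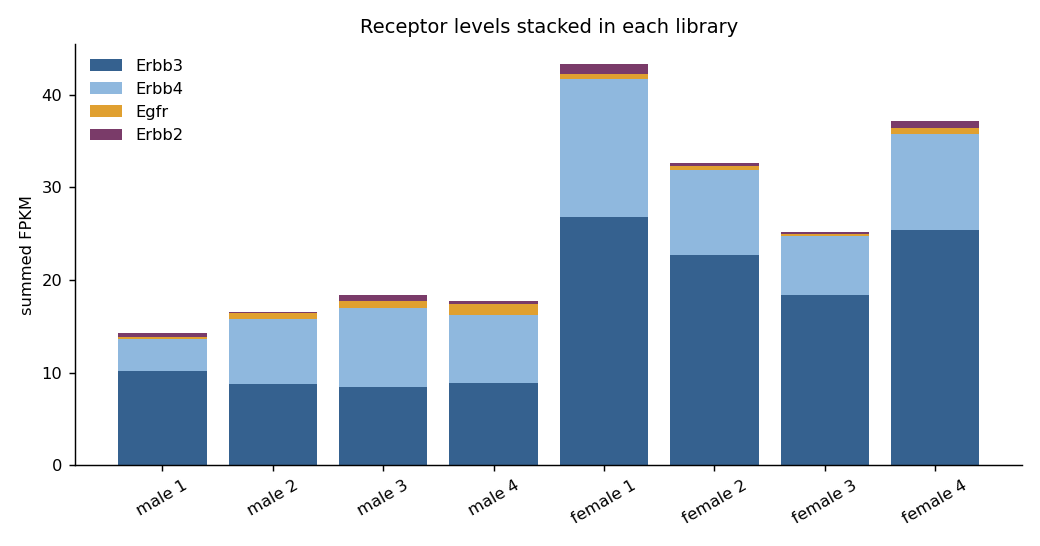
FPKM of the 4 receptors stacked for each of the 8 libraries, male libraries left of female ones. Total heights are 14.2 to 18.3 in male and 25.1 to 43.3 in female libraries, and the lower segments, Erbb3 and Erbb4, fill nearly all of each bar.

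Among the ligands Nrg3 (ENSRNOG00000033894), a neuregulin of the nervous system that binds ErbB4, was the only one in the test. It stood at 5.59, 5.26, 2.91 and 4.01 FPKM in male 1 to male 4, against 3.70, 2.44, 3.41 and 3.77 FPKM in female 1 to female 4. The highest libraries were male 1 and male 2, and the groups overlapped. Its steps numbered 25, 13, 10 and 10 in male 1 to male 4 and 5, 4, 15 and 9 in female 1 to female 4. If a step is worth 1 fragment, the level of Nrg3 in a library rests on 4 to 25 fragments, so depth limits it as well. The mean was 4.44 ± 1.23 FPKM in male and 3.33 ± 0.611 FPKM in female cultures, with a difference of 0.31 ± 0.19, a 95% confidence interval of -0.11 to 0.74 and a limma adjusted p of 0.399.

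Nrg1 (ENSRNOG00000010392), the neuregulin that Schwann cells require, had 0.511, 0.514, 0.370 and 0.611 FPKM in male 1 to male 4, against 0, 0.775, 0.347 and 0.426 FPKM in female 1 to female 4. Female 1, listed at 0, was the shallowest library, and these values were 9, 5, 5 and 6 steps in male 1 to male 4 and 0, 5, 6 and 4 steps in female 1 to female 4. The difference was 0.14 ± 0.18 (SE; exact permutation p = 0.543) and was -0.01 without female 1. Nrg2 (ENSRNOG00000019093), a further neuregulin of the brain, stood at 0.593, 0.505, 0.182 and 0.251 FPKM in male 1 to male 4, against 0.779, 0.322, 0.570 and 1.10 FPKM in female 1 to female 4. No common step was found for Nrg2, and its groups overlapped (-0.28 ± 0.18, SE, exact permutation p = 0.171). As a share of the 4 neuregulins Nrg2 made up 6.82 ± 1.90% in male and 15.1 ± 5.10% in female libraries (exact permutation p = 0.0286, adjusted 0.133 over 7 shares). The shares did not overlap but came close, at 8.85% in male 1 and 9.10% in female 2, and Nrg2 itself was near the detection limit. Nrg3 made up 83.4 ± 0.760% in male and 75.4 ± 6.39% in female libraries (exact permutation adjusted p = 0.133). Nrg4 (ENSRNOG00000015149), a ligand of ErbB4, was listed at 0 in all 8 libraries. Summed over the 4 neuregulins, the level was 5.33 ± 1.47 FPKM in male and 4.41 ± 0.720 FPKM in female cultures (exact permutation p = 0.371).

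Of the 7 ligands of Egfr, the gene of TGF-alpha, Tgfa, was the most abundant and was lower in male cultures. It stood at 42.2, 38.3, 36.9 and 38.1 FPKM in male 1 to male 4, against 61.1, 54.5, 57.9 and 56.8 FPKM in female 1 to female 4. The groups did not overlap, and the mean was 38.9 ± 2.31 FPKM in male and 57.6 ± 2.73 FPKM in female cultures (-0.55 ± 0.07, limma adjusted p = 0.00204). It was also called in every fit that left out 1 library (limma adjusted p up to 0.0111). Hbegf, the gene of heparin-binding EGF, was at 5.23 ± 1.26 FPKM in male and 4.16 ± 0.634 FPKM in female cultures (limma adjusted p = 0.443). Areg, Btc and Egf were at or below 0.574 FPKM in each library, and Ereg and Epgn were listed at 0 throughout. Tgfa thus stood far above every neuregulin per transcript length, while its receptor gene Egfr was listed at no more than 1.18 FPKM.

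Genes that cut, relay or damp ErbB signals were mostly not called. Over the ligand list and 4 further lists 83 genes were tested, 3 were called higher and 5 lower in male cultures, and the median log2 difference was -0.05 against -0.004 for all tested genes. The called share was 9.64%, against 6.04% of all tested genes. Among 13 tested enzymes that release ErbB ligands or cut the receptors, Adam9, a membrane metalloprotease gene, was called lower (48.2 ± 3.01 FPKM in male and 64.1 ± 5.88 FPKM in female cultures, limma adjusted p = 0.0182). It lost its call without male 3 or female 4 (limma adjusted p up to 0.0595). The main sheddase genes Adam10 and Adam17, named after their values were seen, stood at 38.6 ± 5.52 and 11.7 ± 1.98 FPKM in male cultures and at 39.5 ± 0.593 and 11.7 ± 1.23 FPKM in female cultures. Among 28 tested adaptors and effectors Gab1, the gene of a docking protein for PI3-kinase, was called lower (36.9 ± 2.11 FPKM in male and 49.7 ± 4.85 FPKM in female cultures, limma adjusted p = 0.0190), and lost its call without female 1 or female 4 (limma adjusted p up to 0.0583).

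Of 23 tested attenuators 2 were called higher and 1 lower in male cultures. Spry2, the gene of a feedback inhibitor of receptor tyrosine kinases, stood at 111 ± 6.03 FPKM in male and 74.9 ± 6.12 FPKM in female cultures (0.56 ± 0.07, limma adjusted p = 0.00231) and kept its call with each library left out. Stub1, the gene of a chaperone-linked ubiquitin ligase that can act on ErbB2, stood at 153 ± 17.7 FPKM in male and 113 ± 17.4 FPKM in female cultures, and kept its call in 2 of 8 fits with 1 library left out (limma adjusted p 0.00992 to 0.125). The phosphatase gene Ptpn9 was called lower at a limma adjusted p of 0.0484 and lost its call without any 1 of the 8 libraries (up to 0.126). Lrig1, an inhibitor of ErbB receptors, and Rnf41, a ubiquitin ligase gene for ErbB3, both named after their values were seen, were not called (limma adjusted p = 0.842 and 0.683). Rnf41 was at 28.8 ± 2.73 FPKM in male and 30.5 ± 2.79 FPKM in female cultures. Of 17 tested scaffolds and membrane partners, Cd9, a tetraspanin gene whose protein binds the precursor of heparin-binding EGF, was called lower (26.6 ± 3.95 FPKM in male and 44.7 ± 5.80 FPKM in female cultures, -0.73 ± 0.12, limma adjusted p = 0.00606) in the fit of all libraries and in each fit with 1 left out. Dlg4, the gene of the scaffold PSD-95 that binds ErbB4, was called higher (27.6 ± 2.26 FPKM in male and 20.6 ± 1.44 FPKM in female cultures, limma adjusted p = 0.0263), and kept its call in 3 of 8 such fits (limma adjusted p up to 0.0886).

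**Figure D4:**
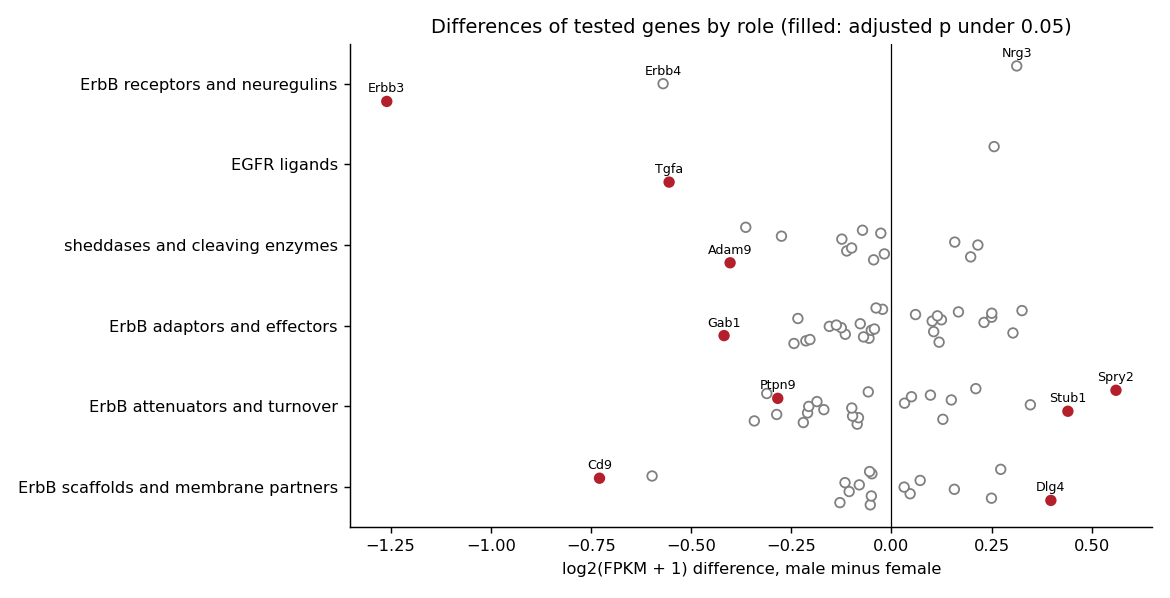
Difference in log2(FPKM + 1), male minus female, of each tested gene by role, with called genes filled and named; vertical scatter within a row only separates the points. Erbb3 at -1.26 lies farthest from 0, and 8 of the 83 genes in the 5 lower rows are called.

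The genes whose profile over the 8 libraries lay nearest to each tested member were found by the root mean square distance between standardized log2(FPKM + 1) values, over 11263 genes. For Erbb3 the nearest were Serinc5, a serine incorporator gene, at a distance of 0.0504, then Enpp2, which encodes autotaxin, Fgfrl1, an FGF receptor without a kinase, the semaphorin gene Sema5a, and Lima1, an actin-binding protein gene, at distances up to 0.116. All 5 were called lower in male cultures, all 5 had male libraries entirely below the female ones, and all 5 were lowest among female libraries in female 3. Serinc5 stood at 52.9, 49.8, 49.8 and 49.3 FPKM in male 1 to male 4, against 91.3, 82.8, 73.9 and 85.5 FPKM in female 1 to female 4. For Erbb4 the nearest were Tnks, a tankyrase gene, Wdfy3, an autophagy adaptor gene, the netrin receptor gene Dcc, the kinase gene Taok1 and Birc6, a ubiquitin-conjugating enzyme gene, at distances of 0.124 to 0.173. None of these 5 was called (limma adjusted p 0.210 to 0.426), and all 5 were lowest in male 1 among male and in female 3 among female libraries. Erbb3 and Erbb4 thus had different neighbours. For Nrg3 the nearest named genes, Asmtl, Cryl1 and Ccdc126, were farther away, at distances of 0.292, 0.307 and 0.330, and none was called. The profiles share libraries and their depth, and the nearest genes were picked for likeness, so the match is a description.

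**Figure D5:**
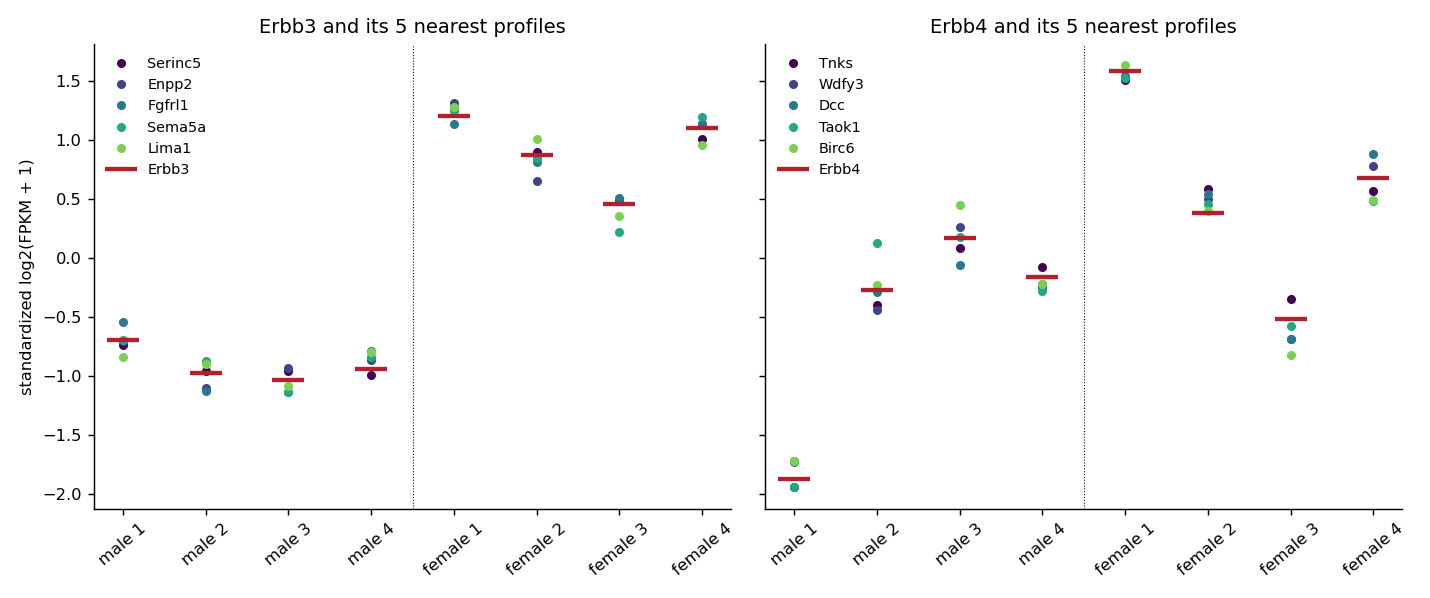
Standardized log2(FPKM + 1) of Erbb3 (left) and Erbb4 (right), as red bars, and of the 5 genes nearest to each, as dots, in 4 male libraries left of the dotted line and 4 female libraries right of it. Erbb3 and its neighbours separate the sexes, whereas Erbb4 and its neighbours are lowest in male 1, and female 3 lies among the male values.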

How the data were processed

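The values are the authors' FPKM, 1 per gene and library, per the file headers; libraries were made from total RNA with a strand-specific Agilent SureSelect kit, per the labels' protocols. The submitters' processing notes name Trimmomatic and FastQC. Which aligner, quantification program, genome build and strand setting were used was not given in the sources used here. This unit holds no counts and divides by library size, so absolute depth is unknown and no counting interval is given. Relative depth was taken from the most frequent ratio of low values (under 1 FPKM in all libraries) between a library and male 1, and the error of low genes is larger in the shallower libraries.

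Values were tested as log2(FPKM + 1) for the 11263 genes whose mean reached 1 FPKM, with limma 3.58.1 in R 4.3.3 (trend, robust moderation), Benjamini-Hochberg adjusted p under 0.05. The pseudocount understates changes of low genes. Members below the filter, shares and ratios were compared by exact two-sided permutation tests over 70 assignments, fewer where 1 library was left out. On simulated data with 200 of 11263 genes changed, the test recovered 35.3% of changes of 0.5 and 80% of changes of 1 on the log2 scale. Of the simulated calls 5.98% were false. The simulated noise was independent between genes, and 680 genes were called in the data, so these rates may not carry over.

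The 8 members and all gene lists were chosen with earlier results of these data known. Of the pathway lists the text names called genes, up to 6 with the smallest p, and all Egfr ligands; it also names the 5 nearest profiles per tested member, leaving out entries that carry no gene name, and a fixed set of markers. Grb2, whose symbol has more than 1 entry, and other symbols not matched were not used here, and 1 gene that the rule takes is not reported here.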

Additional observations from a re-analysis of the deposited data

Results flagged for a closer look

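In 126 groups of 4 libraries, 8 had 1 library far from the others by Dixon's criterion (gap over range above 0.829), where chance flags about 1 in 20. Erbb3 over Erbb4 was 2.96 in male 1 and 1.01 to 1.25 in the other male libraries (gap over range 0.875), and 1.79 to 2.91 in the female libraries. Erbb3 per 100 FPKM of Pdgfra was 4.73 in male 1 and 3.65 to 3.82 in the other male libraries (0.842). Serinc5, the nearest profile to Erbb3, was 52.9 FPKM in male 1 and 49.3 to 49.8 FPKM in the other male libraries (0.871). Dcc, near Erbb4, was 6.39 FPKM in male 1 and 8.32 to 8.68 FPKM in the other male libraries (0.844). Spry2 was 84.0 FPKM in female 3 and 71.2 to 72.8 FPKM in the other female libraries (0.877). The remaining 3 were genes listed at 0 in 3 of 4 libraries (1.000 each): Areg at 0.383 FPKM in female 4, and Egf at 0.0641 FPKM and Col1a1 at 0.0355 FPKM in male 1.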

How the results depend on the processing

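Erbb3 kept its direction under all 20 alternatives (-1.41 to -0.999) and its call in 19. Alternatives that changed only the filter, block, threshold, fold tested against or moderation could not move a difference. The looser threshold of 0.1 could not lose a call either. Tested against a 1.5-fold change Erbb3 stayed at -1.26 with a limma adjusted p of 0.0501, which left 0 members called. Erbb4 (-0.76 to -0.32) and Nrg3 (0.17 to 0.46) kept their directions and were not called under any alternative run. Nrg3 could not be tested at a mean of at least 5 FPKM. With the replicate number as a block Erbb3 was at a limma adjusted p of 0.00219. Deviations of same-numbered libraries correlated at -0.0851 to 0.0767, while those of male 1 and female 3 correlated at 0.242. No sign of pairing by number was seen, but this cannot show whether same-numbered cultures share an origin. Genes called in the 5 pathway lists, 8 in the main test, numbered 3 with the block, 0 against a 1.5-fold change, 5 without trend and robust moderation, and 4 to 8 with 1 library left out (4 without male 3, female 1 or female 4, and 5 without female 2). Over all genes 680 were called, 397 with the block, 18 against a 1.5-fold change, 424 without trend and robust moderation, 1149 at a threshold of 0.1, and 296 to 808 with 1 library left out. The causes were not tested. With 1 library left out, the difference of Egfr ranged from 0.12 to 0.41. Its exact permutation p was 0.0286 without male 1 and 0.257 to 0.514 without any other library. The difference of Nrg1 ranged from -0.0060 to 0.27, the reversal (-0.0060) being without female 1. That of Nrg2 ranged from -0.40 without female 2 to -0.17 without female 4. Of the OPC markers, 8 were called in the main test, 5 with no filter, 4 without trend and robust moderation, 1 against a 1.5-fold change, 13 at a threshold of 0.1, and 14 without male 1 and female 3 together. If a step is worth 1 fragment, depth limits Egfr, Erbb2, Nrg1 and Nrg3. Egfr, Erbb2 and Nrg1 had at most 13 steps in a library, and Nrg3 had 4 to 25. No common step was found for Nrg2, whose mean of 0.538 FPKM was also low, or for Erbb3 and Erbb4.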
